A study of Mus musculus with 6 samples.

Results

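The cap-binding complex eIF4F and the 4E-BPs that regulate it were described here through 10 genes of the deposited table of 55359 genes: Eif4e, Eif4e2, Eif4e3, Eif4a1, Eif4g1, Eif4g2, Eif4g3, Eif4ebp1, Eif4ebp2 and Eif4ebp3. They were taken by gene name, and the set was chosen by the measured level of Eif4e, which was high in every library labelled YTHDF2 shRNA. The difference of Eif4e is therefore a description without a test, while the other 9 genes came in by family membership. The study asked about the m6A reader YTHDF2 in cardiac ischemia-reperfusion (I/R) injury of C57BL/6 mice. The animals had received AAV9 through the tail vein with a YTHDF2 shRNA (shYthdf2, 3 libraries) or a negative-control shRNA (shNC, 3 libraries), in a construct with a cTNT promoter and GFP. The cTNT promoter is active in cardiomyocytes. The hearts behind all 6 libraries were injured 4 weeks after the virus, by ischemia of 45 min and then reperfusion for 24 h, and neither an uninjured nor an uninjected heart was analysed here. RNA came from the whole heart, so cells that the promoter does not reach contributed to every value, and fewer cells of a type cannot be told apart from less RNA per cell. The labels do not say whether the 3 libraries of a group came from separate animals, and the p-values reflect no more than how these libraries varied, which may be technical.

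In eIF4F, eIF4E binds the methylguanosine cap of an mRNA, the scaffold eIF4G joins it to the small ribosomal subunit through eIF3, and the helicase eIF4A unwinds the leader. Unphosphorylated 4E-BPs occupy the surface of eIF4E that eIF4G uses, and phosphorylation by the kinase complex mTORC1 releases them, so the amount of free eIF4E is set after transcription as well as by its mRNA. In heart muscle the mTORC1 branch is known for its part in hypertrophic growth. YTHDF2 binds m6A-modified mRNAs and recruits the machinery that shortens their poly(A) tails.

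Each library held 67023813 to 77561552 assigned reads. The targeted transcript did not set the groups apart: Ythdf2 was at 25.1, 25.6 and 32.7 CPM (counts-per-million values on TMM-scaled library sizes) in shYthdf2 libraries, against 20.7, 24.3 and 27.0 CPM in shNC libraries, so groups are named by their labels only. Every one of the 12 cardiomyocyte markers was detected, with a summed level of 32100 to 39400 CPM in shYthdf2 and 24100 to 62700 CPM in shNC libraries. Library shNC 3 stood apart from its group. Pearson's r of log2 CPM was 0.9467 between shNC 3 and shNC 1 and 0.9428 between shNC 3 and shNC 2. Pairs of a shYthdf2 and a shNC library had higher values, 0.961 to 0.9718. The summed red cell markers of shNC 3 were 480 CPM, against 2100 and 3700 CPM in shNC 1 and shNC 2. Its macrophage markers were 973 CPM, against 442 and 447 CPM. Libraries shYthdf2 1 and 2 were the most alike pair, though further apart than sampling noise, and differed from shYthdf2 3 in platelet markers (170 and 175 CPM against 50.9 CPM) and neutrophil markers (751 and 813 CPM against 178 CPM). Over the groups, summed platelet markers ran from 50.9 to 175 CPM in shYthdf2 and from 34.8 to 51.0 CPM in shNC libraries, with higher means for all 8 in shYthdf2. Summed red cell markers ran from 615 to 643 CPM in shYthdf2 and from 480 to 3700 CPM in shNC libraries, with lower means for all 8 in shYthdf2. Summed fibroblast markers ran from 820 to 1580 CPM in shYthdf2 and from 760 to 1390 CPM in shNC libraries. Endothelial markers ran from 1330 to 1500 CPM in shYthdf2 and from 992 to 1900 CPM in shNC libraries. No marker of these lists was at 0 in all libraries. The part of these cell types in the values below was not tested.

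Eif4e (ENSMUSG00000028156, chromosome 3, 138231940 to 138265457, plus strand, in the table's coordinates, for which no build is named) encodes the cap-binding subunit itself. Its level was 71.9, 73.2 and 79.1 CPM in the shYthdf2 libraries, against 12.3, 14.4 and 15.6 CPM in the shNC libraries. The groups were far apart and each was tight: 74.7 ± 3.85 CPM in shYthdf2 and 14.1 ± 1.67 CPM in shNC libraries (SD, n = 3 each), a 5.29-fold difference of means and a fitted log2 fold change of 2.40. It rested on 5194, 5663 and 6015 reads in shYthdf2 libraries and on 913, 979 and 1186 reads in shNC libraries. A processed pseudogene, Gm7327, is 98.6% identical to the coding sequence over 654 bases and held only 130, 140 and 266 reads in shYthdf2 and 117, 62 and 82 reads in shNC libraries. With its reads added, Eif4e stood at 73.7, 75 and 82.6 CPM in shYthdf2 and 13.9, 15.4 and 16.7 CPM in shNC libraries.

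**Figure D1:**
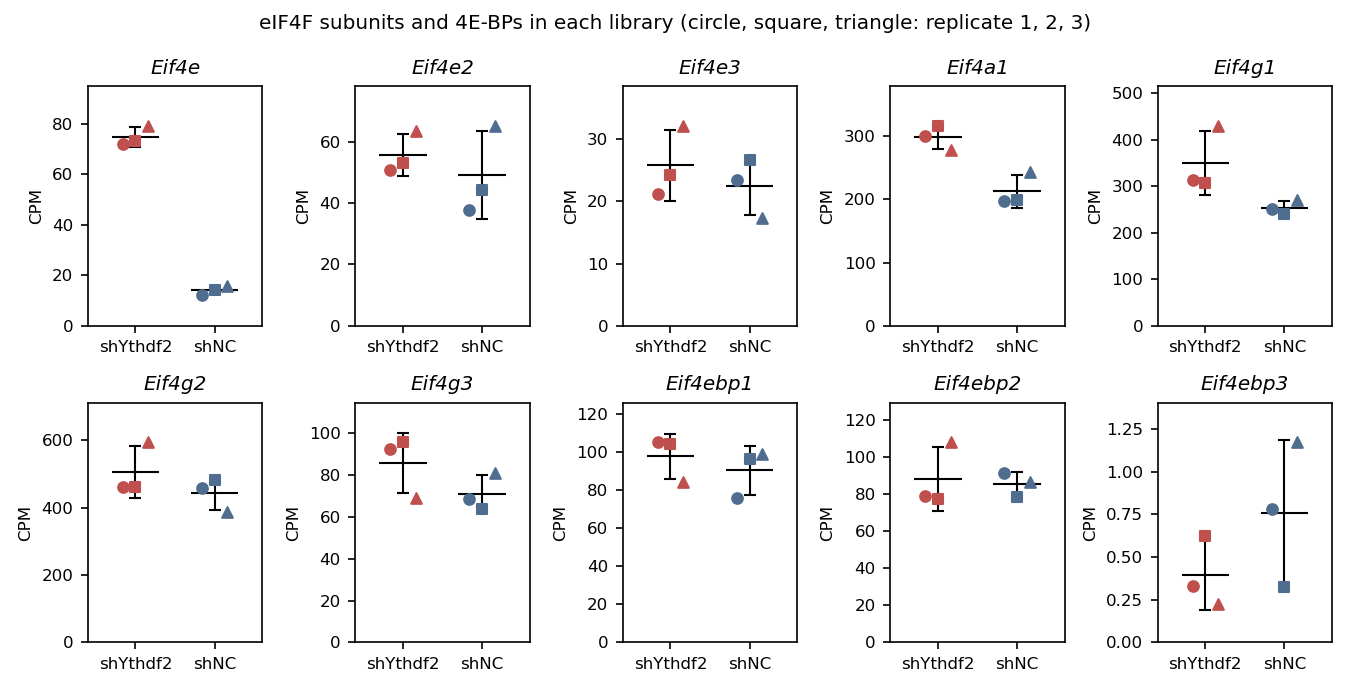
Level of each of the 10 genes in every library, in CPM on axes that start at 0, with 1 panel per gene, shYthdf2 left of shNC, points for libraries and bars for the mean and SD of a group. Eif4e shows the wide gap for which the set was picked (71.9 to 79.1 CPM in shYthdf2, 12.3 to 15.6 CPM in shNC libraries), and among the others only Eif4a1 and Eif4g1 have groups that do not overlap.

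Sequences before the annotated start are shown for Eif4e, Eif4a1 and Eif4g1, the members whose windows held the motif named below. These genes encode a cap-binding, a helicase and a scaffold subunit of the complex. RefSeq promoter windows (build GRCm38.p6) were matched for 6 of the 10 genes, and none for Eif4e3, Eif4g2, Eif4ebp1 and Eif4ebp3. In the 250 bases before a start, Eif4e, Eif4a1 and Eif4g1 held the E-box CACGTG, and Eif4e2, Eif4g3 and Eif4ebp2 held none. The motif was looked for with the values known, and its presence was not tested against them. CACGTG reads the same on both strands, and it is in capitals. The windows are chr3:138527018-138527267 on the plus strand for Eif4e, chr11:69672424-69672673 on the minus strand for Eif4a1 and chr16:20672477-20672726 on the plus strand for Eif4g1.
Eif4e: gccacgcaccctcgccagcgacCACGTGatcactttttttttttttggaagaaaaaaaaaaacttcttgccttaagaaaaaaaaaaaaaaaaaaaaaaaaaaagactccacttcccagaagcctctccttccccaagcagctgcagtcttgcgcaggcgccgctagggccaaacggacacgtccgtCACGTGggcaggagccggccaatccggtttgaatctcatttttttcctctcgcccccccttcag
Eif4a1: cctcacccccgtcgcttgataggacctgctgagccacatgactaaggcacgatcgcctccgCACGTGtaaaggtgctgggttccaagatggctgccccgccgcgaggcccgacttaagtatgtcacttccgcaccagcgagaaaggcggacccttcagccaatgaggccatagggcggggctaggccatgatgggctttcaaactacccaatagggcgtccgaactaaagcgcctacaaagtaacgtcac
Eif4g1: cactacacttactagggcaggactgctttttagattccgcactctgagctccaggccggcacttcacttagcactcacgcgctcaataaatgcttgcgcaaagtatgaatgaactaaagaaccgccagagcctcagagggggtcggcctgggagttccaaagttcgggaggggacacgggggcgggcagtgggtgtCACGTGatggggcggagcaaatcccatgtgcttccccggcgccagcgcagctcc
The Eif4e window held 2 copies, with first bases 228 and 64 bases before the start, and a second annotated Eif4e window, at chr3:138525941-138526190, held 0. The copy of Eif4a1 began 189 and that of Eif4g1 54 bases before the start. Of all 27025 genes with a window, 1854 (6.86%) held CACGTG and 135 (0.5%) held 2 or more in 1 window. The match is a description of these letters and says nothing about binding.

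The mature transcripts were also read for GGACT, the DNA spelling of the core in which m6A is most often found, on the transcript strand of the longest-coding GENCODE M21 transcript of each gene. Eif4e held 6 (1.2 per kb), against a median of 1.02 per kb over 21734 genes, and 3 of them lay within 200 bases of the first base of the stop codon. The 25-base stretches near the stop codon are printed with GGACT in capitals, since that is the region where m6A is known to be enriched. Positions relative to the stop codon are -155, -90 and 88 for Eif4e, -74 for Eif4a1, 19 and 66 for Eif4g1 and 146 for Eif4e3.
Eif4e at -155: atagcaatatGGACTactgagtgtg
Eif4e at -90: ggaaaggttaGGACTtcctccgaag
Eif4e at 88: aaagcagagtGGACTgcactgaagt
Eif4a1 at -74: gaagacaagaGGACTcttcgagaca
Eif4g1 at 19: gtggggcaggGGACTtggagccatg
Eif4g1 at 66: ccagccgcctGGACTgcaggggggc
Eif4e3 at 146: cgggccattaGGACTcaaagtggca
Among the 9 members with a full window these 4 held the word, against 6557 of 16915 genes (38.8%). Eif4e2 and Eif4ebp3 held GGACT nowhere in the 1 transcript read for each, and their other annotated exons were not searched. No m6A was measured in these data.

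Of the 9 other members, 0 passed an adjusted p of 0.05 in edgeR's quasi-likelihood test with Benjamini-Hochberg adjustment over 20489 genes. The background was 0.00976% of genes called, 2 in all, and these 2 include Eif4e, the gene that chose the set. The number of genes called was 0 without any 1 of the shYthdf2 libraries and 211 without shNC 3, and the 9 members gave 0 each time. At an unadjusted p under 0.05, 1 of the 9 was counted, Eif4a1, against 3.65% of all genes, while DESeq2 called 0 of the 9 against 0.260% of genes, and limma on log2(FPKM + 0.5) called 0 of the 9 against 0.00488% of genes. Means were higher in shYthdf2 libraries for 8 and lower for 1, Eif4ebp3, with a median log2 fold change of 0.19 against -0.01 over all tested genes. The share of all genes with higher means was not counted, so that direction count has no background. The groups did not overlap in CPM for 2 of the 9, both higher in shYthdf2, while 4.95% of all genes were apart in that direction, 4.55% in the other and 9.51% in either.

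**Figure D2:**
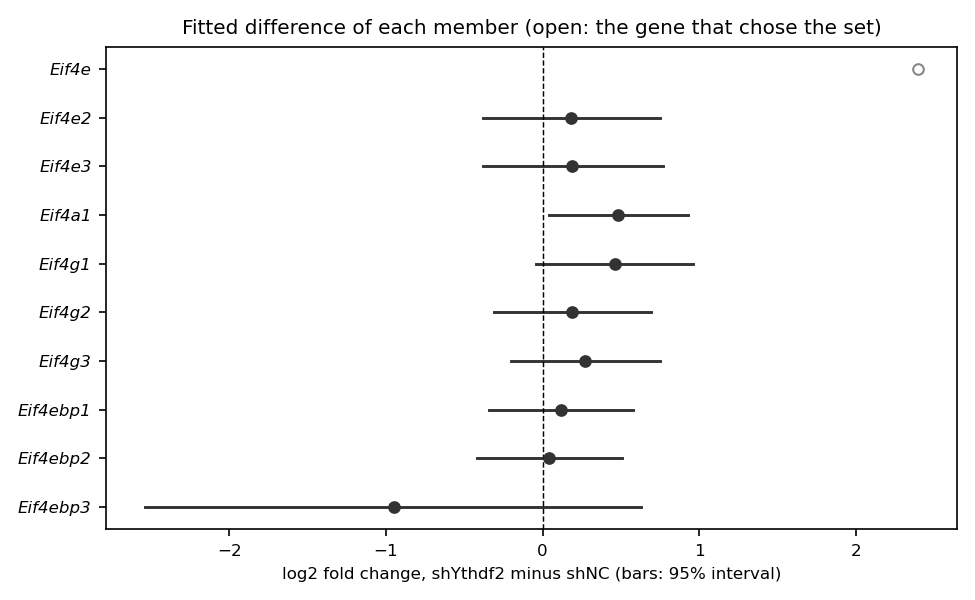
Fitted log2 fold change of each gene, shYthdf2 minus shNC, with 95% intervals as bars for the 9 genes that came in by family and an open point without interval for Eif4e. Among the 9 genes that came in by family, only the interval of Eif4a1 (0.04 to 0.93) lies clear of 0, before adjustment over all genes.

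Eif4a1 and Eif4g1, which encode a helicase and a scaffold of eIF4F, stood somewhat higher in the shYthdf2 libraries without passing the test. Their paralogs did not separate the groups: Eif4a2 had a log2 fold change of 0.01, and Eif4g3 overlapped between groups. Eif4a1 (ENSMUSG00000059796), a helicase subunit, was at 300, 316 and 278 CPM in shYthdf2 libraries, against 197, 199 and 243 CPM in shNC libraries. Every shYthdf2 value lay above every shNC value, and the highest shNC value was that of shNC 3. The means were 298 ± 19.0 and 213 ± 25.8 CPM (SD, n = 3 each), with a log2 fold change of 0.48 ± 0.19 (SE), an unadjusted p of 0.0371 and an adjusted p of 0.976 in edgeR's quasi-likelihood test. A pseudogene, Eif4a-ps4, is 99.9% identical over 1218 bases of coding sequence and held 3481, 3927 and 4028 reads in shYthdf2 and 2179, 2670 and 3864 reads in shNC libraries, so the split of reads between them is uncertain. Summed with its copies, Eif4a1 was at 348, 367 and 331 CPM in shYthdf2 and 227, 238 and 294 CPM in shNC libraries, still without overlap (log2 fold change 0.46 ± 0.20, adjusted p = 0.976 in edgeR).

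Eif4g1 (ENSMUSG00000045983), the main scaffold, was at 313, 307 and 430 CPM in shYthdf2 libraries, against 251, 241 and 271 CPM in shNC libraries. The groups were apart, and shYthdf2 3 was well above its 2 companions. The log2 fold change was 0.46 ± 0.21 (95% interval -0.04 to 0.96, adjusted p = 0.976 in edgeR), and 0.29 without shYthdf2 3. Eif4g3, the second scaffold that binds eIF4E, was at 92.5, 95.4 and 69.0 CPM in shYthdf2 and 68.5, 63.6 and 80.8 CPM in shNC libraries. Its groups overlapped through the values of shYthdf2 3 and shNC 3 (0.27, interval -0.20 to 0.75, and 0.41 without shYthdf2 3). Eif4g2 encodes DAP5, which lacks the site for eIF4E and serves cap-independent initiation, and it was at 462, 462 and 594 CPM in shYthdf2 and 460, 483 and 388 CPM in shNC libraries. These overlapped in CPM, yet in the authors' FPKM (fragments scaled for summed exon length and library size) the groups were apart. The FPKM values were 41.5, 41.4 and 52.2 in shYthdf2 and 39.4, 38.1 and 38.7 in shNC libraries, so that separation depends on the scaling. Its log2 fold change was 0.19, with an interval of -0.31 to 0.69, and it was 0.06 without shYthdf2 3 and 0.11 without shNC 3.

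The other cap-binding proteins did not share the gap of Eif4e. Eif4e2 (4EHP), which binds the cap without eIF4G and represses translation, was at 50.8, 52.9 and 63.4 CPM in shYthdf2 and 37.9, 44.4 and 65.1 CPM in shNC libraries. The lowest and the highest of the 6 values were both shNC libraries (0.18, interval -0.38 to 0.75, adjusted p = 0.976 in edgeR). Eif4e3, an atypical cap binder, was at 21.1, 24.2 and 32.1 CPM in shYthdf2 and 23.5, 26.7 and 17.4 CPM in shNC libraries, with the groups intermixed (0.19, interval -0.38 to 0.77). These intervals hold 0 and also log2 differences up to 0.75 and 0.77, so neither gene is shown to be at the same level in both groups. Single libraries moved both values, to 0.44 for Eif4e2 without shNC 3 and 0.03 without shNC 1, and to 0.01 for Eif4e3 without shYthdf2 3 and 0.04 without shNC 3. With 1 library left out at a time, Eif4e2 ran from 0.03 to 0.44 and Eif4e3 from 0.01 to 0.34. FPKM sets genes side by side per summed exon length, which can exceed the length of the mRNA present. By FPKM, Eif4e made up 44.1, 42.2 and 38.3% of the 3 cap-binding genes in shYthdf2 libraries, against 12.5, 12.7 and 14.3% in shNC libraries. Eif4e2 and Eif4e3 together stood at 13.9, 15.2 and 18.9 FPKM in shYthdf2 and 12.5, 13.2 and 15.8 FPKM in shNC libraries.

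The 4E-BPs, the inhibitors, showed no difference that passed the test. Eif4ebp1 was at 105, 104 and 84.1 CPM in shYthdf2 libraries, against 75.7, 96.3 and 99.0 CPM in shNC libraries, with the groups overlapping (0.12, interval -0.34 to 0.58, adjusted p = 0.976 in edgeR). Eif4ebp2 was at 78.9, 77.6 and 108 CPM in shYthdf2 and 91.3, 78.8 and 86.6 CPM in shNC libraries (0.04, interval -0.42 to 0.51, adjusted p = 0.989 in edgeR). Its lowest and its highest value were both shYthdf2 libraries. With 1 library left out at a time, the log2 fold change ran from 0.01 to 0.22 for Eif4ebp1 and from -0.13 to 0.13 for Eif4ebp2, lowest without shNC 1 and without shYthdf2 3. Eif4ebp3 was the lowest of the 10 genes, with 24, 48 and 17 reads in shYthdf2 and 58, 22 and 89 reads in shNC libraries. Its log2 fold change of -0.95 had an interval of -2.54 to 0.63, and it was -0.50 without shNC 3 and -1.44 without shYthdf2 2. It shares its end with the longer gene Maskbp3 on the same strand, which held 1484 to 1641 reads in shYthdf2 and 1716 to 2022 reads in shNC libraries. Together they were at 20.9, 21.8 and 20.9 CPM in shYthdf2 and 28.1, 25.6 and 24.5 CPM in shNC libraries. Those groups were apart without passing the test (-0.30 ± 0.16, adjusted p = 0.976 in edgeR), and 4.55% of all genes were apart and lower. Most of the summed reads were assigned to Maskbp3, so the sum does not show a difference of Eif4ebp3, whose own groups overlapped.

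**Figure D3:**
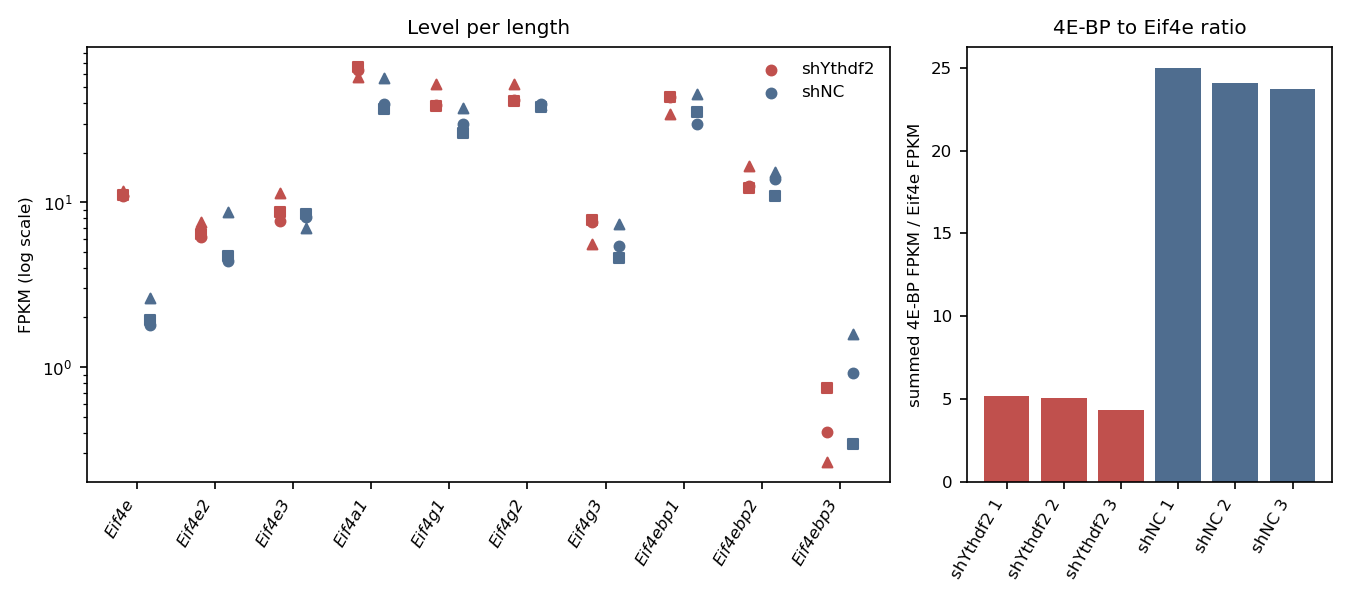
Left, FPKM of each gene in every library on a log axis, with shYthdf2 left of shNC and 1 point per library; right, bars for the summed 4E-BP FPKM divided by the Eif4e FPKM in each library. By FPKM, Eif4e has rank 6 of the 10 genes in each shYthdf2 library and rank 9 in each shNC library, and the ratio is 4.34 to 5.17 in shYthdf2 and 23.7 to 25.0 in shNC libraries.

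Ordered by mean FPKM, Eif4a1 led both groups, at 62.3 FPKM in shYthdf2 and 44.4 FPKM in shNC libraries. In the shYthdf2 libraries Eif4g2 (45.0), Eif4g1 (43.3) and Eif4ebp1 (40.4) followed and overlapped with each other, then Eif4ebp2 at 13.8. Eif4e came next at 11.3 FPKM and overlapped in range with Eif4e3 (9.27). Eif4g3 (7.01) overlapped with Eif4e3 and with Eif4e2 (6.72), and Eif4ebp3 was last at 0.474. Within each shYthdf2 library, Eif4e was above Eif4e3 and Eif4e3 above Eif4g3. In the shNC libraries Eif4a1 overlapped with Eif4g2 (38.7), and the order went on with Eif4ebp1 (36.9), Eif4g1 (31.3), Eif4ebp2 (13.3), Eif4e3 (7.89), Eif4e2 (5.97), Eif4g3 (5.79), Eif4e (2.11) and Eif4ebp3 (0.946). Eif4e there lay below Eif4g3 without overlap. In each group, 5 of 9 neighbouring pairs overlapped in their ranges over the libraries.

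Set against Eif4e, the summed FPKM of the 4E-BPs was 5.17, 5.07 and 4.34 times that of Eif4e in shYthdf2 libraries, against 25.0, 24.1 and 23.7 times in shNC libraries. The 4E-BP sum itself overlapped between groups, at 56.6, 56.3 and 51.0 FPKM in shYthdf2 and 44.7, 46.3 and 62.4 FPKM in shNC libraries, so the gap between the ratios comes with Eif4e, the gene that chose the set. Eif4a1 was 5.79, 5.99 and 4.87 times Eif4e in shYthdf2 and 22.2, 19.1 and 21.6 times in shNC libraries. These are mRNA ratios, and neither protein nor 4E-BP phosphorylation was measured.

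Shares within the families that do not involve Eif4e were tested in 3 exact two-sided permutation tests, whose smallest possible p with 3 against 3 is 0.1. Eif4a1 was 64.3, 63.7 and 65.4% of the FPKM of both eIF4A helicases in shYthdf2 libraries, against 56.6, 52.6 and 60.1% in shNC libraries, without overlap (difference 8.04 percentage points, exact permutation p = 0.1, 0.3 after Benjamini-Hochberg adjustment). Its partner Eif4a2 was at 206, 222 and 182 CPM in shYthdf2 and 186, 221 and 199 CPM in shNC libraries. Eif4g2 was 47.0, 47.3 and 47.3% of the Eif4g family in shYthdf2 and 52.7, 55.1 and 46.3% in shNC libraries, overlapping through shNC 3 (exact permutation p = 0.4, adjusted 0.6). Eif4ebp1 was 77.3, 76.9 and 66.9% of the 4E-BPs in shYthdf2 and 67.2, 75.7 and 73.2% in shNC libraries (exact permutation p = 0.6, adjusted 0.6).

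The wider translation machinery was read through 4 lists. None of their 92 tested genes passed edgeR's test, against 0.00976% of all genes, and the smallest adjusted p was 0.976. At an unadjusted p under 0.05 there were 0, against 3.65% of all genes. DESeq2 called 0, against 0.260%, and limma 0, against 0.00488%, so 0 adjusted calls is also what the background shares give for a group of this size. Among 22 tested partners and regulators of eIF4F, 19 had higher and 3 lower means. Their median log2 fold change was 0.16, against -0.01 over all tested genes. The share of all genes with higher means was not counted, so the direction counts of all 4 lists have no background. The groups did not overlap in CPM for 2 of the 22, both higher in shYthdf2. Over all genes, 4.95% were apart in that direction and 4.55% in the other. Smallest in p was Gigyf2, which works with eIF4E2 in repression, at 25.1, 23.1 and 43.1 CPM in shYthdf2 and 23.4, 19.3 and 14.9 CPM in shNC libraries (0.66 ± 0.30). Cyfip1, which binds eIF4E in neurons, was at 73.0, 75 and 86.9 CPM in shYthdf2 and 61.5, 47.3 and 79.8 CPM in shNC libraries. Ncbp3, a nuclear cap-binding protein, was apart at 19.9, 21.3 and 24.3 CPM in shYthdf2 and 19.3, 16.8 and 19.0 CPM in shNC libraries. Paip2b, an inhibitor of poly(A)-binding protein, had a log2 fold change of 0.31 with overlapping groups.

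In the mTORC1 pathway, 14 of 26 genes had higher and 12 lower means (median 0.03). The groups of 4 were apart and higher and those of 0 apart and lower, against 4.95% and 4.55% of all genes. Rraga, a Rag GTPase that recruits mTORC1 to lysosomes, was apart at 29.6, 32.1 and 36.0 CPM in shYthdf2 and 27.6, 22.5 and 24.7 CPM in shNC libraries (0.39 ± 0.18). Ddit4 (REDD1), a stress-induced inhibitor of mTORC1, was at 92.2, 90.5 and 64.6 CPM in shYthdf2 and 113, 156 and 73.1 CPM in shNC libraries (-0.47 ± 0.30), with the groups overlapping through shNC 3. Castor1, the arginine sensor, had a log2 fold change of -0.36, and Akt1, the kinase upstream, was apart at 173, 179 and 169 CPM in shYthdf2 and 145, 127 and 166 CPM in shNC libraries.

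Of 30 other initiation factors, 17 had higher and 13 lower means (median 0.10). The groups of 1 were apart and higher and those of 2 apart and lower, against 4.95% and 4.55% of all genes. Eif3a, the large eIF3 subunit, was apart at 173, 171 and 199 CPM in shYthdf2 and 134, 124 and 163 CPM in shNC libraries (0.37 ± 0.19). Eif2b4, of the eIF2 exchange factor, was at 34.6, 41.3 and 44.2 CPM in shYthdf2 and 56.4, 60.2 and 41.4 CPM in shNC libraries (-0.39 ± 0.21). Its groups overlapped through shNC 3, as did those of Eif2s1, the regulated eIF2 subunit (54.2, 55.6 and 69.7 CPM in shYthdf2 and 32.7, 37.1 and 63.6 CPM in shNC libraries). Eif2b2 had a log2 fold change of 0.26.

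Of 14 transcripts described elsewhere as sensitive to eIF4E, 12 had higher and 2 lower means (median 0.24, against -0.01 over all tested genes). The groups of 1 were apart, higher in shYthdf2, against 4.95% of all genes in that direction. The levels of the 14 transcripts are of mRNA and do not measure translation. Hif1a, the hypoxia factor, was apart at 104, 109 and 117 CPM in shYthdf2 and 69.4, 79.2 and 97.3 CPM in shNC libraries (0.43 ± 0.19). Cyclin D1 (Ccnd1) was at 130, 115 and 128 CPM in shYthdf2 and 63.1, 48.8 and 129 CPM in shNC libraries (0.63 ± 0.36), where shNC 3 matched the shYthdf2 libraries. Vegfa, the angiogenic factor, was at 190, 194 and 150 CPM in shYthdf2 and 366, 341 and 131 CPM in shNC libraries, and Fgf2, a growth factor, had a log2 fold change of -0.86 ± 0.61. In a fit without shNC 3, 211 of 21245 tested genes were called. Of the 92 list genes, 4 passed. They were Odc1, of polyamine synthesis (1.28, adjusted p = 0.0331 in edgeR), Eif6, which keeps the ribosomal subunits from joining early (1.13, adjusted p = 0.0398), Ccnd1 (1.15, adjusted p = 0.0466) and Eif5, which makes eIF2 hydrolyse GTP (2.49, adjusted p = 0.0494). With all libraries, Odc1 was at 136, 141 and 142 CPM in shYthdf2 and 55.5, 59.7 and 208 CPM in shNC libraries, and Eif5 at 228, 215 and 99.7 CPM in shYthdf2 and 32.1, 32.3 and 241 CPM in shNC libraries. In both, shNC 3 was far above shNC 1 and shNC 2. Eif4a1 did not pass there (0.59, adjusted p = 0.0901 in edgeR).

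**Figure D4:**
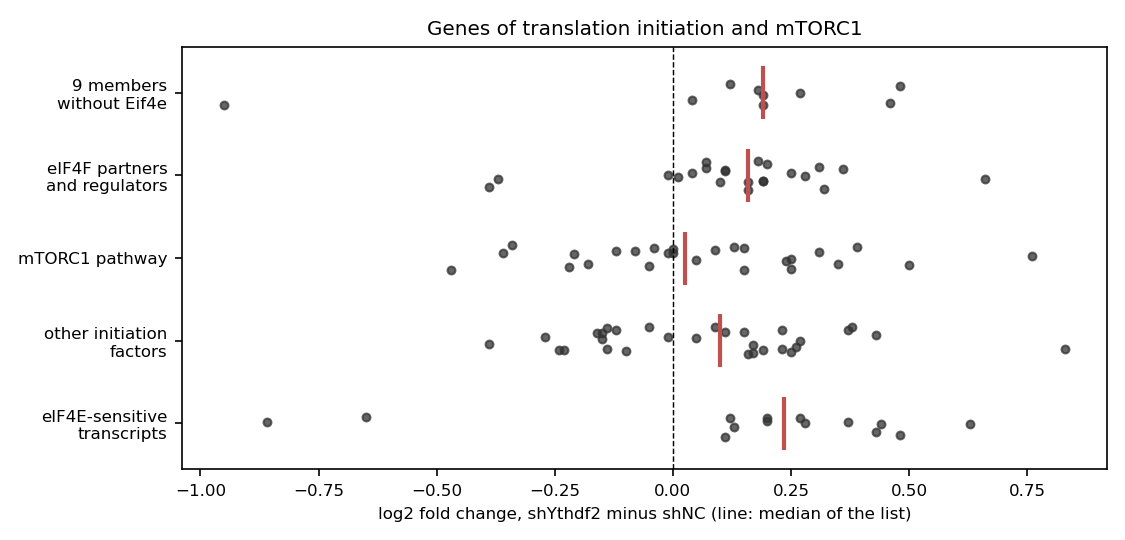
Log2 fold change, shYthdf2 minus shNC, of the 9 members without Eif4e and of each tested gene of the 4 lists, with 1 point per gene and a line for the median. The list medians run from 0.03 (mTORC1 pathway) to 0.24 (eIF4E-sensitive transcripts), against -0.01 over all tested genes.

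Genes whose pattern over the 6 libraries was most like that of Eif4e, by Pearson's r of log2 CPM among 11156 genes, were Kctd12 (0.9965), Tlnrd1 (0.9946), Ift57 (0.9868), Alg2 (0.9867) and B020010K11Rik (0.9842). Since the level of Eif4e chose the set, this ranking describes the same contrast and supports nothing about it. Kctd12, Alg2 and B020010K11Rik reached the required mean of 5 CPM only through the shYthdf2 libraries. Kctd12 was at 28.3, 30.6 and 37.7 CPM in shYthdf2 and had 0 reads in every shNC library, and Alg2, a mannosyltransferase of glycan assembly, was at 8.63, 9.55 and 11.2 CPM in shYthdf2 and 1.78, 1.37 and 1.5 CPM in shNC libraries. Tlnrd1 and Ift57 had the same shape at a small size, with log2 fold changes of 0.35 and 0.37. Within the set, the pattern of Eif4a1 (r = 0.92) and of Eif4g1 (r = 0.83) was nearest to that of Eif4e over the 6 libraries. Eif4a1 and Eif4g1 are also the other members whose groups did not overlap in CPM, so their r with Eif4e describes that same contrast. Eif4e3 and Eif4g2 were alike (r = 0.95). Nearest to Eif4ebp1 were Gm10232 (0.9786), Csf2rb2 (0.9781), Junb (0.9737), Cpne1 (0.9693) and Reps1 (0.9654). Junb, an immediate-early transcription factor, was at 115, 116 and 72.0 CPM in shYthdf2 and 56.2, 82.0 and 103 CPM in shNC libraries. These correlations share libraries and depth and are given as a description.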

How the data were processed

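Total RNA of mouse hearts was sequenced in 6 TruSeq libraries, per the labels' protocols. The deposited table gives raw counts per gene, unscaled, and the authors' FPKM, per the file headers. Bowtie 0.12.2 and mm8 are listed per the submitters' processing notes, without a stated role. The counting tool, the annotation, the strand setting and the coordinate build were not given in the sources used here, and reads of overlapping genes cannot be told apart. The length implied by a member's counts and FPKM was 1.11 to 1.12 times its summed exon length in GENCODE M21. FPKM thus follows all annotated exons, which can be longer than the mRNA present. That sum was 7497 bases for Eif4e2, whose longest-coding transcript had 2869, while both were 2515 for Eif4e3. FPKM ranks, shares and ratios across members carry this limit, and which transcripts were present was not tested.

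Counts were tested with edgeR 4.0.16's quasi-likelihood test (two-sided, R 4.3.3, TMM scaling, filterByExpr, Benjamini-Hochberg adjustment over 20489 genes, threshold 0.05). On simulated counts, the procedure was checked for the fitted size of planted changes. The share of planted changes called is not given here, so that check does not show that small differences would be found. Depth was 67023813 to 77561552 counts per library, and means carry the SD over 3 libraries. DESeq2 1.42.0, limma 3.58.1 on log2(FPKM + 0.5), other scalings and filters, each library left out and a replicate block were alternatives. Summing near-identical rows and summing shYthdf2 1 and 2 were chosen after seeing the data. Members and lists were chosen with earlier results of these data known. All members were named, then in each list the 4 genes of smallest p and any that passed, and the 5 genes most like Eif4e or Eif4ebp1 by Pearson's r, at a mean of at least 5 CPM. Members were aligned to annotated copies. Promoters are from RefSeq, transcripts from GENCODE M21.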

Additional observations from a re-analysis of the deposited data

How the results depend on the processing

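The 9 members other than Eif4e gave 0 calls under all 18 alternatives. The count of genes past the threshold, 2 at the settings of the report, was 1 with library totals only, 1 with at least 10 counts in every library, 1 with limma at each of the pseudocounts 0.5, 0.1 and 1, 53 with DESeq2 and 0 with shYthdf2 1 and 2 summed. Leaving out 1 library at a time gave 0 to 211 calls, with 211 without shNC 3 and 1 without shNC 1 or shNC 2, and with 0 without any of the shYthdf2 libraries. The cause was not tested. Under the replicate block 0 genes were called. Same-numbered libraries had correlations of deviations of -0.0132, -0.0264 and -0.0581, and differently numbered ones of -0.0373 to 0.0522. With 3 libraries a group, these values cannot decide whether the samples were paired.

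The Eif4e difference of 2.40 was 2.18 with limma on log2(FPKM + 0.5) and 1.99 on log2(FPKM + 1), where a larger pseudocount shrinks low values by construction, and 2.32 to 2.48 with 1 library left out. The Eif4ebp1 share difference turned to -0.094 without shYthdf2 1 and to -0.739 without shNC 1, with a highest value of 5.07. The Eif4ebp2 log2 fold change of 0.04 turned to -0.00012 with upper quartile scaling, -0.13 without shYthdf2 3 and -0.01 without shNC 2, and it reached 0.13 without shYthdf2 2. The lists had 0 to 4 calls among 92 genes with 1 library left out. The 4 calls came without shNC 3, where 211 of 21245 tested genes were called. Adjusted p-values of Eif4a1 ran from 0.0901 to 1 over the alternatives. With 3 libraries a group and a common biological coefficient of variation of 48.2%, the intervals of the members are wide. Eif4ebp3 rested on 17 to 89 reads per library and every other member on at least 913, and the parts of counting error and library spread were not separated.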
